A study of Arabidopsis thaliana with 6 samples.

Results

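The subject is the second day of vascular induction in glucose medium, that is, the change between 24 and 48 h of culture, read from 1 array at each time. It covers 2 of the 6 arrays of a study that cultured cotyledons of wild-type Arabidopsis thaliana in VISUAL with glucose or sucrose. Of the 16722 probe sets that stand for exactly 1 gene, 7955 reached a deposited log2 signal of 6 on at least 1 of the 2 arrays and are described here. They belong to 7880 genes. The cotyledons came from 6-day-old seedlings grown in liquid MS medium at 22 °C in continuous light, and every group, the 0 h arrays included, is wild type. The induction medium held 1.25 mg/L of 2,4-D, 0.25 mg/L of kinetin, 10 µM bikinin and 5% of the sugar, so that the 24 and 48 h arrays share all agents and differ in time. The sucrose cultures, sampled at the same 3 times, differ from the glucose cultures in the sugar. Times are those of the sample titles. A second label for time disagrees on 5 of the 6: it reads 34 h where the glucose title says 24 h, and 72 h where it says 48 h, and it reads 72 h on each sucrose array, even that titled 0 h.

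In VISUAL, mesophyll cells of cut cotyledons first return to a procambium-like state and then become xylem vessel or phloem sieve cells. The auxin 2,4-D and the cytokinin kinetin drive division, and bikinin blocks the GSK3-like kinases that hold back xylem differentiation. Xylem vessel cells lay down a secondary wall of cellulose, xylan and lignin and then die and empty themselves. Sieve cells lose their nucleus but stay alive, and small secreted CLE peptides help to set where both tissues form.

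Every sugar and time has 1 array, so no difference below has a replicate or a test. Differences are log2 signal at 48 h minus log2 signal at 24 h after each array was centred on its median over the 1-gene probe sets, which moves the glucose difference by 0.02. A difference is called when it reaches 2-fold, 1 on the log2 scale. Level values are deposited log2 signals. RNA came from whole cotyledons, so fewer cells of a type and less RNA per cell cannot be told apart, and genes of near-identical sequence may share signal, which was not tested. The labels do not say whether the arrays came from separate cultures. As a scale for differences between arrays, the 0 h arrays in the 2 sugars were at least 2-fold apart for 5.26% of 7276 probe sets, with an SD of 0.51.

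On the second day in glucose, 1695 of the 7955 described probe sets (21.3%) passed 2-fold. Of these, 867 (10.9% of all described) had more signal at 48 h and 828 (10.4%) had less. The differences had a median of -0.08, an SD of 1.03 and a range of -4.11 to 6.44. The 2 sides differed in shape: 90 probe sets were at least 16-fold higher at 48 h and 1 was at least 16-fold lower. At 4-fold the counts were 363 higher and 69 lower. In sucrose the same probe sets spread less, with an SD of 0.78, and 8.36% were at least 2-fold higher and 5.23% at least 2-fold lower. The balance between higher and lower calls in glucose depends on the scaling. Higher calls were 51.2% of all calls as reported, 63.1% after scaling to a common 2% trimmed mean, 67.2% after quantile normalization and 79.5% after centring on all non-control probe sets. Those scalings added 0.15, 0.18 and 0.35 to the median difference, and lowess centring added 0.12. Smaller differences below are therefore relative to the centring.

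**Figure D1:**
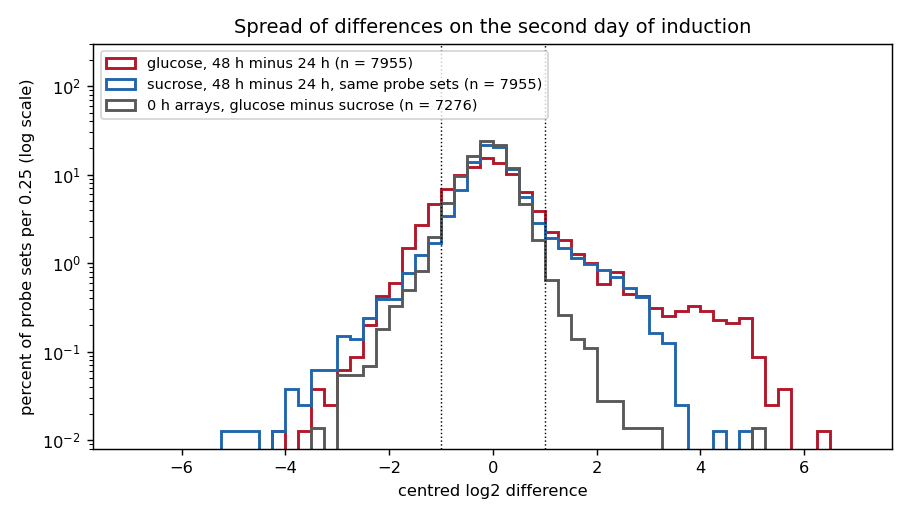
Percent of probe sets (log axis, bins of 0.25) by centred log2 difference for the second day in glucose (red), the same probe sets in sucrose (blue) and the 0 h arrays, glucose minus sucrose (grey), 1 array a side; dotted lines mark 2-fold. The glucose curve has a shoulder on the higher side that reaches past 16-fold, a log2 difference of 4.

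The genes with the largest differences formed a group of like profile. The 90 genes at least 16-fold higher had median log2 signals of 4.96, 5.61 and 10.4 at 0, 24 and 48 h in glucose, and of 4.92, 5.24 and 7.43 at the same times in sucrose. At 24 h in glucose 58 of the 90 were under 6, and 72 were under 6 on both 0 h arrays. In sucrose 70 of the 90 were under 6 at 24 h and 21 at 48 h. Most sucrose differences of these genes thus use a value under the minimum. In the sucrose cultures, which share no array with the glucose pair, 84 of the 90 were at least 2-fold higher at 48 h than at 24 h and all 90 had a positive difference, with a median of 2.11 against 4.55 in glucose. For 89 of them the centred 48 h signal was higher in glucose than in sucrose, by a median of 2.88. They were chosen for a difference that uses the glucose 48 h array. The glucose values and the contrast with sucrose at 48 h are thus set in part by that choice and are a description.

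**Figure D2:**
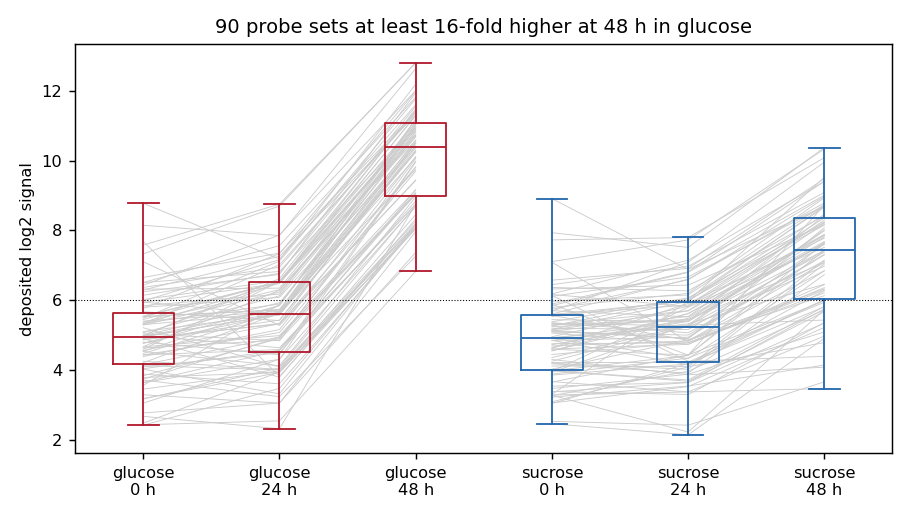
Deposited log2 signal of the 90 probe sets at least 16-fold higher at 48 h than at 24 h in glucose, on each of the 6 arrays; boxes give quartiles, whiskers the lowest and highest value, grey lines single probe sets, and the dotted line the minimum of 6. The medians are 5.61 at 24 h and 10.4 at 48 h in glucose, and 5.24 and 7.43 at those times in sucrose.

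All of the 12 highest genes with a signal of at least 6 on both arrays carry only a locus tag in the reference table, so no role is given for them. AT3G10680 had 11.95 at 48 h against 6.74 at 24 h in glucose, a difference of 5.22 (37.4-fold), and 9.41 against 6.82 in sucrose. AT1G60360 had 12.2 at 48 h against 7.16 at 24 h in glucose, a difference of 5.05, and 9.96 against 7.09 in sucrose. AT3G18260 had 11.5 at 48 h against 6.52 at 24 h in glucose, a difference of 4.97, and 8.94 against 6.20 in sucrose. All 3 were highest on the glucose 48 h array and next highest on the sucrose 48 h array. The other genes of the 12 were AT5G04700, AT1G61760, AT1G67790, AT1G68230, AT1G13920, AT5G45540, AT5G49320, AT3G15800 and AT5G04690. AT1G67790 has 2 described probe sets that disagree, with glucose differences of 4.84 and 0.21. Over the 12 the difference ran from 4.67 to 5.22 in glucose and from 1.94 to 2.83 in sucrose.

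Genes under 6 at 24 h allow only a bound, found by raising the low value to 6. The 8 with the highest bounds were AT4G09950, AT2G28580, AT5G67050, AT5G41470, AT5G14510, AT4G16015, AT2G34530 and AT5G20870. They were at least 24.4-fold to at least 37.1-fold higher at 48 h in glucose, with signals of 10.6 to 11.2 at 48 h against 5.59 to 5.89 at 24 h. All 8 were also at least 2-fold higher at 48 h in sucrose. Among the 90 genes, 3 have a name other than a locus tag. These were picked out after their values were seen. GSTF4, a phi-class glutathione transferase, had 10.5 at 48 h against 5.73 at 24 h in glucose (at least 22.8-fold) and 8.30 against 5.70 in sucrose. AGL93, a MADS-box protein, differed by 4.70 in glucose and 3.46 in sucrose, and PM-ANT, a plasma membrane nucleotide transporter, by 4.20 and 1.67. Both were under 6 at 24 h in glucose, so their glucose differences rest on a value under the minimum and are not bounds.

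Higher genes lay next to each other in the reference gene order more often than lower ones did. Among 2528 pairs of adjacent protein-coding genes that are both described, 68 pairs were both at least 2-fold higher and 26 pairs both at least 4-fold higher. The neighbour of a gene that was at least 2-fold higher was itself higher in 23.1% of cases, against 11.7% for the neighbour of any gene in these pairs. For lower genes the shares were 9.78% and 10.1%. Runs of 3 adjacent genes included AT5G45520, AT5G45530 and AT5G45540, with differences of 4.97, 4.46 and 4.77, and AT4G16000, AT4G16008 and AT4G16015, with 4.08, 4.12 and 5.12. AT5G04680, AT5G04690 and AT5G04700 had 3.97, 4.67 and 4.94. How far signal shared between similar neighbours contributes was not tested.

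Of the xylem and secondary wall list, 5 genes could be described of 6 with a 1-gene probe set, and 4 of the 5 were at least 2-fold higher at 48 h in glucose. The list's median difference was 2.35, beside -0.08 over all described genes, and 2 of the 5 passed 2-fold in sucrose. With values under 6 raised to 6, 3 of the 5 passed in glucose, as IRX15 is then at least 1.78-fold higher. Of the 61 genes written on the list only these 6 could be looked up, so the list is a small sample. GUT2, listed also as IRX10, makes the xylan backbone. It had 10.7 at 48 h against 8.29 at 24 h in glucose, a difference of 2.41 (5.31-fold), and 8.64 against 7.74 in sucrose. IRX15 and IRX15-L are needed for normal xylan. IRX15 had 6.81 at 48 h against 4.48 at 24 h in glucose, and 5.17 against 3.14 in sucrose, where both values are under the minimum. IRX15-L had 10.5 at 48 h against 8.77 at 24 h in glucose, a difference of 1.76, and 8.50 against 8.02 in sucrose. For GUT2 and IRX15-L the glucose 48 h array was the highest of all 6. AT4G18425, which the reference table does not name, had 7.69 at 48 h against 4.16 at 24 h in glucose and 6.41 against 3.81 in sucrose. GUT1, a close relative of GUT2 that many tissues express, had 8.45 at 48 h and 8.46 at 24 h, and was the member that did not change by 2-fold.

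HCT, an enzyme of the lignin pathway that moves hydroxycinnamoyl groups to shikimate, had 10.0 at 48 h against 8.05 at 24 h in glucose, a difference of 1.98. In sucrose it had 9.02 against 8.59. HCT was the only described gene of the lignin list, and at 0 h it had 10.9 in glucose and 11.1 in sucrose, higher than at 48 h. The laccase and peroxidase list had 2 described genes, PRXR1 and PRX52, with glucose differences of -0.11 and -0.67 and sucrose differences of -1.13 and -2.04.

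The wall synthesis list shares IRX15 with the xylem list, so the 2 lists are not independent. Of 28 described, 10 were at least 2-fold higher and 2 lower in glucose, beside 10.9% and 10.4% of all described probe sets. In sucrose 10 were higher and 2 lower as well. With values under 6 raised to 6, 8 were higher and 2 lower in glucose, as the calls of IRX15 and TBL31 end. The TBL family adds acetyl groups to wall polysaccharides, and 6 of its 14 described members were higher and 1 was lower. TBL33, an acetyltransferase of xylan, had 9.11 at 48 h against 7.29 at 24 h in glucose and 6.78 against 5.07 in sucrose. TBL34, its close relative, had 8.16 at 48 h against 6.37 at 24 h in glucose and 6.45 against 4.87 in sucrose. Both were higher at 48 h in the 2 sugars, by 1.83 in glucose and 1.67 in sucrose for TBL33, and 1.81 and 1.55 for TBL34. The sucrose differences of both genes rest on 24 h values under the minimum of 6. TBL31 had 6.02 at 48 h against 4.17 at 24 h in glucose (at least 1.03-fold) and stayed under 6 in sucrose. TBL26 went the other way, with 6.27 at 48 h against 8.70 at 24 h in glucose and 7.21 against 10.1 in sucrose. Among the GH9 glucanases, which cut or trim cellulose, 2 of 7 were higher, and GH9B17 had 7.42 at 48 h against 5.56 at 24 h in glucose and 5.56 against 5.31 in sucrose.

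Of 15 described genes of wall loosening in primary walls, 1 was at least 2-fold higher and 5 at least 2-fold lower in glucose, beside 10.9% and 10.4% of all described probe sets. Their median was -0.21, or 0.14 after centring on all non-control probe sets, and with values under 6 raised to 6 the lower calls number 2, as those of XTH19, XTH33 and EXPA16 end. EXLA1, an expansin-like protein, had 8.49 at 48 h against 6.51 at 24 h in glucose, whereas it had 6.71 against 6.66 in sucrose. EXPA9, an expansin, had 5.59 at 48 h against 7.78 at 24 h in glucose (at least 3.39-fold lower) and was lower in sucrose too, with 5.45 against 7.12. EXPB3 had 8.60 at 48 h against 10.0 at 24 h in glucose but 8.99 against 8.06 in sucrose, so its differences of -1.38 and 0.88 had opposite signs. XTH19 and XTH33, xyloglucan-modifying enzymes, and EXPA16 were the other lower members, with differences of -1.53, -1.39 and -1.21.

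Of 5 described phloem genes, 1 was at least 2-fold higher and 1 at least 2-fold lower in glucose. In sucrose 3 were higher and 1 was lower. Over all described probe sets 10.9% were higher and 10.4% lower in glucose, and 8.36% and 5.23% in sucrose. CLE45, a phloem peptide that holds back sieve cell formation, had 8.01 at 48 h against 4.57 at 24 h in glucose. In sucrose it had 6.24 against 3.02. Its differences of 3.46 and 3.18 rest on 24 h values under the minimum of 6 and are not bounds. With values under 6 raised to 6 the glucose call of CLE45 stays, while its sucrose signal at 48 h was itself near 6. OPS, a protein that promotes sieve cell identity, had 6.75 at 48 h against 7.30 at 24 h in glucose but 7.79 against 6.57 in sucrose. CLE25, a peptide made in phloem cells, had 8.77 at 48 h against 9.18 at 24 h in glucose and 9.49 against 8.59 in sucrose. For OPS and CLE25 the glucose array was the higher one at 24 h and the sucrose array at 48 h. AT5G02460 had 8.29 at 48 h against 7.71 at 24 h in glucose and 8.56 against 7.01 in sucrose. SWEET11, a sucrose exporter of the leaf phloem, had 10.4, 7.13 and 4.18 at 0, 24 and 48 h in glucose, and 11.0, 8.46 and 4.87 in sucrose, lower at each later time in both.

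None of the 6 described procambium and cambium genes reached 2-fold in either direction in either sugar. CLE41 and CLE44, which make the TDIF peptide that keeps procambium cells dividing, had glucose differences of 0.36 and 0.01. CLE44 had 9.90 at 48 h and 9.91 at 24 h in glucose against 6.42 at 0 h, so its higher level was already there at 24 h. PHV, a class III homeodomain factor, and LHW, a bHLH factor of vascular initials, had -0.04 and -0.06, and the PXY-like receptor kinases AT1G08590 (PXL1) and AT4G28650 (PXL2) had 0.01 and -0.15. CLE42, a further peptide of the TDIF kind that was looked at with the other CLE genes after values were seen, had 9.74 at 48 h against 8.02 at 24 h in glucose and 9.39 against 7.09 in sucrose.

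**Figure D3:**
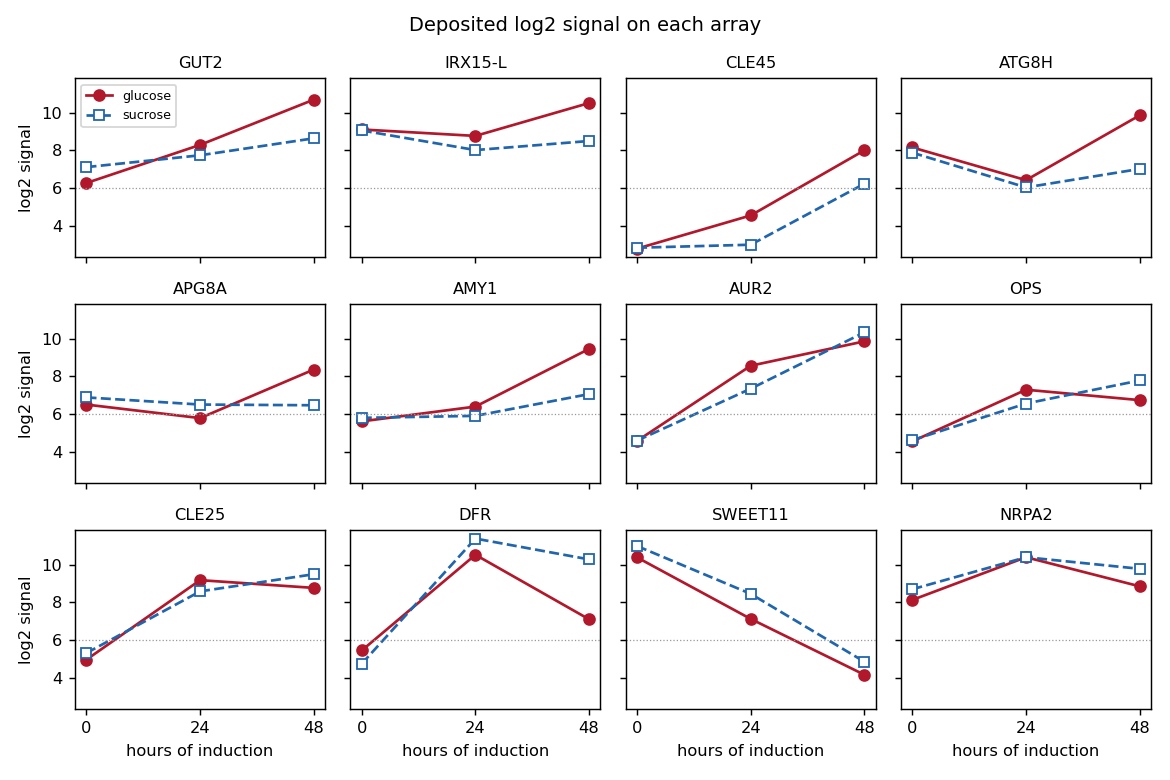
Deposited log2 signal by hours of induction for 12 genes, with glucose as filled red circles and sucrose as open blue squares, 1 array a point; the dotted line marks 6. GUT2, IRX15-L, ATG8H, APG8A and AMY1 part between the sugars at 48 h, with glucose higher, and DFR and NRPA2 part with glucose lower.

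Of 12 described mitosis genes, 1 was at least 2-fold higher and none lower in glucose, a share near the 10.9% of all described probe sets. In sucrose 7 were at least 2-fold higher. In glucose 11 of the 12 differences were positive, with a median of 0.70, beside -0.08 over all described genes, and in sucrose the median was 1.68. Under centring on all non-control probe sets 7 of the 12 passed 2-fold in glucose, since many lay just under it. AUR2, an Aurora kinase of the spindle and cell plate, had 9.86 at 48 h against 8.57 at 24 h in glucose and 10.3 against 7.35 in sucrose. BUBR1, a spindle checkpoint protein, had 9.27 at 48 h against 8.34 at 24 h in glucose and 9.83 against 7.13 in sucrose. In both genes the glucose array was higher at 24 h and the sucrose array at 48 h. AUR1 had a difference of 0.72 in glucose and 2.47 in sucrose, AT2G28620 had 0.79 and 3.09, and AT1G63100 had 0.78 and 2.98. AUR3, an Aurora kinase that acts at the centromere, had 0.78 and 0.25.

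DNA replication genes lay near or under 0 in glucose. The 4 described genes had differences of -0.78 to 0.04 in glucose and of 0.63 to 1.46 in sucrose. PRL, the helicase subunit MCM7, was lowest in glucose with -0.78 and highest in sucrose with 1.46. None of 6 described histone genes passed 2-fold in glucose, where HTB2, a histone H2B, had -0.31, beside 1.62 in sucrose. Microtubule and ROP genes held 5 higher and 2 lower of 26, or 11 higher and 2 lower after centring on all non-control probe sets. As reported, 10.9% of all described probe sets were higher and 10.4% lower. Before members matched by letters alone were left out, the list had 6 higher and 4 lower of 29. With values under 6 raised to 6, 4 were higher and 1 was lower, as the calls of RIC7 and IQD24 end. TRM30, of a family that recruits proteins to cortical microtubules, had 8.81 at 48 h against 6.66 at 24 h in glucose and 6.598 against 4.52 in sucrose. TRM15, of the same family, differed by 1.35 in glucose. TUB1, a beta-tubulin, had 7.09 at 48 h against 5.66 at 24 h in glucose and 6.33 against 4.37 in sucrose. RIC7, an effector of ROP GTPases, had 6.26 at 48 h against 3.95 at 24 h in glucose and stayed near 4 in sucrose, at 4.08 and 4.04. IQD22 and IQD24, calmodulin-binding proteins, were lower, by -1.71 and -1.86 in glucose.

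Of 21 described genes of autophagy and vacuolar traffic, 5 were at least 2-fold higher in glucose and none lower. Over all described probe sets 10.9% were higher and 10.4% lower. The median of the 21 was 0.44 in glucose and -0.03 in sucrose. All 5 higher genes were ATG8 genes, a family counted apart after values were seen. ATG8 proteins are small tags that are joined to the growing membrane of the autophagosome, the vesicle that carries cell contents to the vacuole. All 9 of the measured ATG8 genes could be described, 5 were at least 2-fold higher at 48 h in glucose, and 8 had a larger difference in glucose than in sucrose. Over all described genes the glucose difference exceeded the sucrose one in 45.6%. ATG8H had 9.85 at 48 h against 6.43 at 24 h in glucose, a difference of 3.44 (10.9-fold), and 7.02 against 6.05 in sucrose. ATG8E had 7.62 at 48 h against 4.59 at 24 h in glucose and 5.71 against 4.45 in sucrose. APG8A, which is ATG8A, had 8.37 at 48 h against 5.80 at 24 h in glucose (at least 5.22-fold higher) and 6.48 against 6.52 in sucrose. The signal of APG8A in sucrose was thus level where that in glucose was higher. ATG8F and ATG8B differed by 1.83 and 1.66 in glucose, beside 1.02 and -0.03 in sucrose. At 0 h ATG8H had 8.16 in glucose and 7.88 in sucrose and ATG8F had 9.93 and 9.22, so for both genes the 24 h arrays were the low point of each sugar. Of 11 described VPS and VHA genes, which serve vesicle sorting and the vacuolar proton pump, none passed 2-fold in glucose. VPS24.1 came nearest with 0.999, just under the limit.

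**Figure D4:**
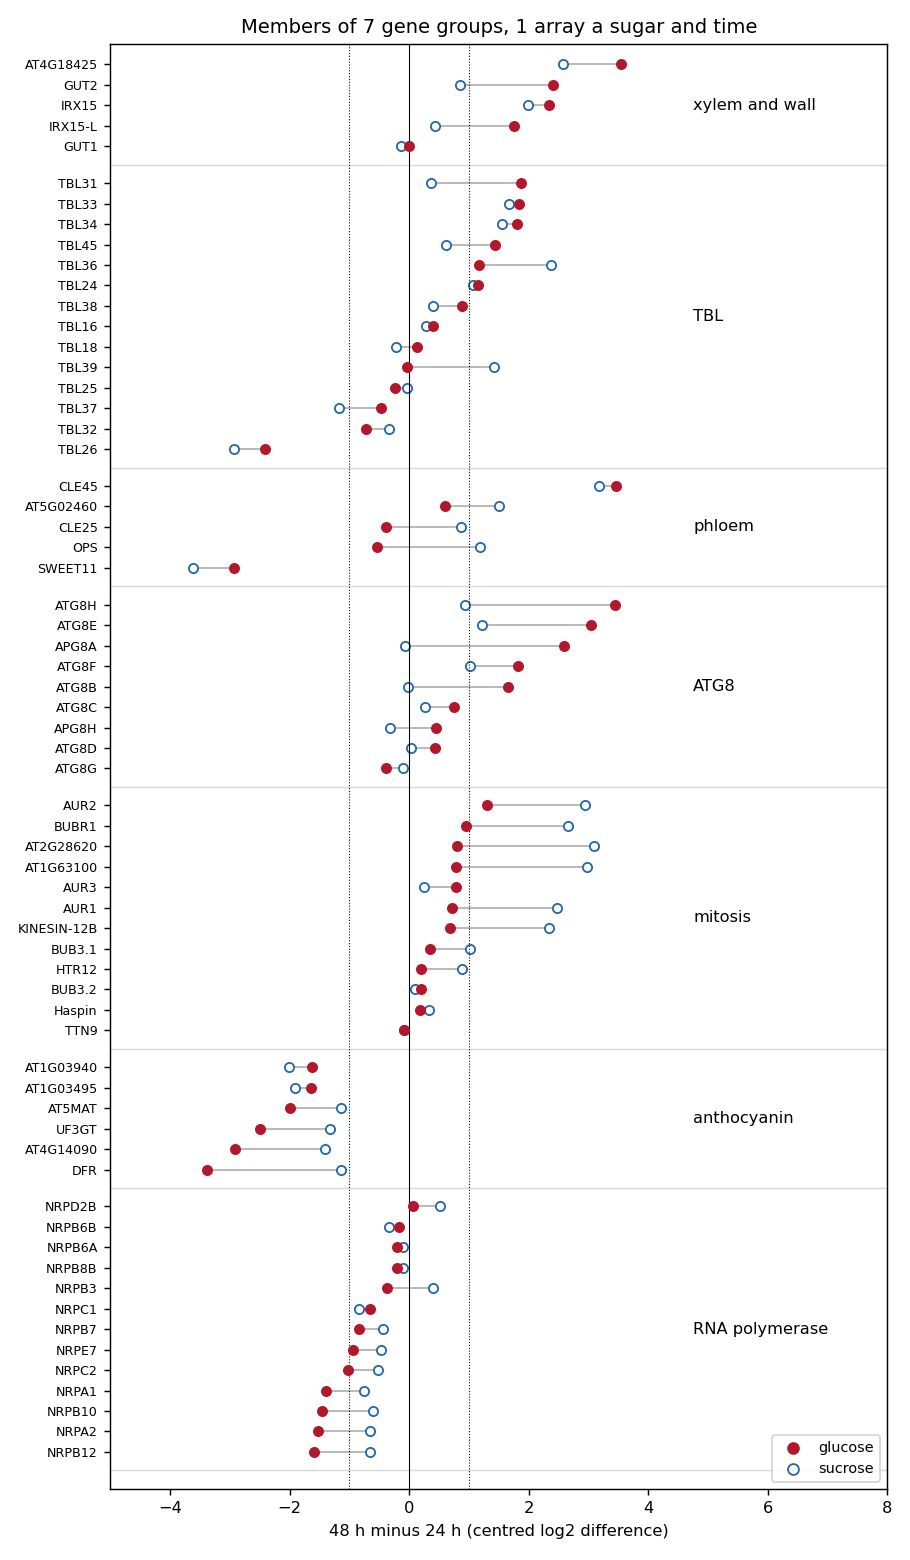
Centred log2 difference, 48 h minus 24 h, of every described member of 7 gene groups in glucose (filled red) and sucrose (open blue), 1 array a sugar and time; dotted lines mark 2-fold. ATG8 and anthocyanin genes lie further from 0 in glucose for most members, and most mitosis genes lie further from 0 in sucrose.

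Genes linked to low sugar gave few members. AT3G15450, on the sugar starvation list but unnamed in the reference table, had 7.69, 3.83 and 8.10 at 0, 24 and 48 h in glucose and 6.14, 4.26 and 4.39 in sucrose. It was at least 4.35-fold higher at 48 h than at 24 h in glucose, while in sucrose its difference was 0.10. MCCB, a subunit of the enzyme that breaks down leucine, had differences of 0.81 in glucose and 0.62 in sucrose. A list of branched-chain amino acid and lysine breakdown, added after values were seen, had 3 of 6 described genes at least 2-fold higher in glucose. All 6 differences were positive, with a median of 0.91. Over all described probe sets 10.9% were higher. The count depends on the scaling: 2 of the 6 passed without centring, and 5 under quantile normalization or centring on all non-control probe sets. AT4G33150, listed as LKR/SDH, the entry enzyme of lysine breakdown, had 7.0 at 48 h against 5.45 at 24 h in glucose and 5.35 against 5.56 in sucrose. D2HGDH and ETFQO pass electrons from this breakdown to the respiratory chain. D2HGDH had 7.43 at 48 h against 6.22 at 24 h in glucose, and ETFQO 8.66 against 7.67, a difference at the 2-fold limit that falls under it without centring. AKINBETA1, a subunit of the energy-sensing kinase SnRK1, also stood at the limit with 8.17 at 48 h against 7.18 at 24 h, beside 6.81 against 6.66 in sucrose. ALN, the allantoinase of purine breakdown, had 8.89 at 48 h against 6.65 at 24 h in glucose and 6.79 against 6.52 in sucrose.

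Of 6 described starch genes 1 was at least 2-fold higher and 1 lower in glucose, beside 10.9% and 10.4% of all described probe sets. After centring on all non-control probe sets 2 were higher and none lower. AMY1, a secreted alpha-amylase, had 9.46 at 48 h against 6.41 at 24 h in glucose, a difference of 3.07 (8.37-fold), and 7.07 against 5.92 in sucrose. APL3, a subunit of the enzyme that starts starch synthesis, had 6.87 at 48 h against 8.19 at 24 h in glucose and 7.88 against 9.65 in sucrose. AMY1 and APL3 were the members past 2-fold of 6 described. Outside the list, AT4G24450, a glucan water dikinase gene that shares the symbol PWD with AT5G26570, had 9.39 at 48 h against 6.83 at 24 h in glucose but 6.94 against 7.74 in sucrose. AT5G26570 had a glucose difference of 0.12.

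Of the SWEET sugar exporters, 3 of 4 described were at least 2-fold lower at 48 h in glucose and in sucrose. Over all described probe sets 10.4% were lower in glucose and 5.23% in sucrose. SWEET4 had 3.24 at 48 h against 6.76 at 24 h in glucose and 2.71 against 6.00 in sucrose. SWEET1 had 4.14 at 48 h against 6.28 at 24 h in glucose and 5.15 against 6.58 in sucrose. The 48 h values of SWEET4 and SWEET1 are under 6 in both sugars. This limits the fold in glucose to at least 1.67 for SWEET4 and at least 1.195 for SWEET1. With values under 6 raised to 6 only the glucose call of SWEET11 stays. In sucrose the same limit holds for both genes, and SWEET4 stood at the minimum itself at 24 h. SWEET13 differed by -0.36, and the vacuolar sugar importers TMT1 and TMT2 by -0.79 and -0.12.

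Enzymes that release or transfer small molecules held several of the larger rises. Of 9 described beta-glucosidases, which free compounds from their sugar, 6 were at least 2-fold higher and none lower in glucose. Over all described probe sets 10.9% were higher and 10.4% lower. In sucrose 5 of the 9 were higher and none lower. With values under 6 raised to 6 the glucose call of BGLU16 ends. BGLU28 had 9.58 at 48 h against 5.94 at 24 h in glucose (at least 12.1-fold) and 8.14 against 5.22 in sucrose. BGLU33 had 13.3 at 48 h against 10.2 at 24 h in glucose and 11.4 against 9.48 in sucrose. BGLU41 and BGLU25 differed by 1.95 and 1.71 in glucose, beside 1.82 and 1.10 in sucrose. Of 14 described serine carboxypeptidase-like genes, 2 were higher and 1 was lower. The member scpl48 differed by 2.07 in glucose and 2.42 in sucrose. Its relative scpl28 had 6.36 at 48 h against 4.50 at 24 h in glucose but 5.91 against 7.10 in sucrose, and its glucose call ends with values under 6 raised to 6.

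Glutathione transferases detoxify reactive compounds. Beside GSTF4, GSTU18 had 7.30 at 48 h against 4.52 at 24 h in glucose and 5.66 against 4.41 in sucrose. GSTU20 was lower at 48 h in glucose, with 6.89 at 48 h against 9.27 at 24 h, beside 7.24 against 7.30 in sucrose. Of 19 described UDP-glucosyl transferases, which attach sugars to hormones and secondary compounds, 1 was higher and 4 were lower. With values under 6 raised to 6 the lower calls of UGT71B1 and UGT74B1 end. Over all described probe sets 10.9% were higher and 10.4% lower in glucose. UGT76E12 had 4.82 at 48 h against 7.28 at 24 h in glucose and 4.49 against 7.25 in sucrose, although another probe set of UGT76E12 differed by -0.35 in glucose. UGT76E11 had 5.53 against 7.19 and 5.89 against 7.76. For UGT76E12 and UGT76E11 the 48 h values are under the minimum of 6 in both sugars.

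Defence and cell death genes were few. Of 6 described defence genes 3 were higher and none lower in glucose, with a median of 1.55. Over all described probe sets 10.9% were higher and 10.4% lower. With values under 6 raised to 6, 2 of the 6 were higher, as the call of PDF1.4 ends, and the median was 0.50. As first written the list had 9, with 3 higher and 2 lower and a median of 0.60; PDF1A, PDF1B and CRK, which it took in by their letters, were left out after values were seen. PDF2.1, a defensin-like peptide, had 9.90 at 48 h against 6.95 at 24 h in glucose and 10.0 against 6.48 in sucrose, alike in both sugars. PDF1.4 had 6.37 at 48 h against 3.10 at 24 h in glucose (at least 1.31-fold) and 3.76 against 3.21 in sucrose. NHL25 had 7.24 at 48 h against 4.77 at 24 h in glucose and 5.38 against 5.07 in sucrose. The WRKY factors WRKY6, WRKY20 and WRKY47 differed by 0.60, 0.07 and -0.25. BETA-VPE, a vacuolar processing protease, had 7.10 at 48 h against 9.13 at 24 h in glucose and 8.29 against 9.77 in sucrose, and GAMMA-VPE had a difference of 0.79. AT4G04460, unnamed in the reference table and on the cell death list, had 8.03 at 48 h against 6.74 at 24 h in glucose and 7.10 against 4.75 in sucrose.

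Anthocyanin genes were lower on the second day. All 6 described members were at least 2-fold lower at 48 h in both sugars, with a median of -2.24 in glucose and -1.37 in sucrose. Over all described probe sets 10.4% were lower in glucose and 5.23% in sucrose. The 5 other scalings, applied to the glucose pair only, could not end a call. They added at most 0.36, and the smallest glucose difference was -1.62. With values under 6 raised to 6 in glucose, 5 of the 6 passed, and AT5MAT was at least 1.92-fold lower. DFR, the enzyme that commits flavonoids to the anthocyanin branch, had 5.47, 10.5 and 7.11 at 0, 24 and 48 h in glucose and 4.77, 11.4 and 10.3 in sucrose. Its fall of the second day was thus larger in glucose, by differences of -3.39 and -1.14. UF3GT and AT5MAT, which add sugar and malonyl groups to the pigment, had 4.86 against 7.37 and 4.95 against 6.96 at 48 and 24 h in glucose. In sucrose the same genes had 6.85 against 8.13 and 7.08 against 8.19. AT4G14090 differed by -2.91 in glucose and -1.41 in sucrose. AT1G03940 and AT1G03495 had differences of -1.62 and -1.64 in glucose that were smaller than the -2.01 and -1.90 in sucrose.

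Subunits of the RNA polymerases, gathered as a list after values were seen, were lower on the second day. Of 13 described, 5 were at least 2-fold lower and none higher in glucose, and none passed 2-fold in sucrose. Over all described probe sets 10.4% were lower and 10.9% higher in glucose. With all scalings tried except no centring, 4 rather than 5 passed. NRPA1 and NRPA2, the 2 large subunits of polymerase I, which transcribes ribosomal RNA, were both lower. NRPA2 had 8.85 at 48 h against 10.4 at 24 h in glucose and 9.78 against 10.4 in sucrose. NRPA1 had 8.54 at 48 h against 9.94 at 24 h in glucose and 9.58 against 10.3 in sucrose. NRPB10 and NRPB12, small subunits of the polymerases, had differences of -1.46 and -1.59 in glucose and -0.61 and -0.66 in sucrose. NRPC2, of polymerase III, had -1.02. The largest subunit of polymerase III, NRPC1, had -0.66, and NRPB3 and NRPB7 of polymerase II had -0.38 and -0.84.

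Photosynthesis genes mark the leaf origin of the tissue, and most of their lower signal was already there at 24 h. The 15 described members had median signals of 10.0, 7.14 and 6.55 at 0, 24 and 48 h in glucose and 9.81, 6.18 and 6.04 in sucrose. On the second day 2 of the 15 were at least 2-fold lower in glucose, beside 10.4% of all described probe sets. PSBY, a small photosystem II subunit, had 5.62 at 48 h against 7.14 at 24 h, and PSAE-1, a photosystem I subunit, 7.41 against 8.76. Of 63 described genes of the plastid genome none passed 2-fold, with differences of -0.85 to 0.27. FMA, a guard cell factor, differed by -0.73 and was the only described marker of the stomatal lineage. The lists for epidermis, trichome and myrosin cells, and callus had no described member. The 6 described reference genes for transcript measurement lay between -0.36 and 0.35.

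Of 3 described genes of the cold and osmotic response list, 2 continued downward. They were at least 2-fold lower in both sugars, beside 10.4% of all described probe sets in glucose and 5.23% in sucrose. COR15A, a chloroplast membrane protectant, had 12.2, 7.70 and 4.90 at 0, 24 and 48 h in glucose and 12.3, 9.38 and 5.40 in sucrose. KIN2 had 12.1, 8.74 and 6.44 in glucose and 11.998, 8.34 and 6.85 in sucrose. COR47 did not change by 2-fold, with a difference of -0.05 in glucose and 0.84 in sucrose. The 48 h values of COR15A are under the minimum of 6. With values under 6 raised to 6 the glucose calls of COR15A and KIN2 stay. STZ, a zinc-finger repressor of stress genes, had 6.65 at 48 h against 8.55 at 24 h in glucose and 6.19 against 8.29 in sucrose.

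Hormone genes were thinly covered. RR16, a type-A response regulator that damps cytokinin signalling, had 7.79 at 48 h against 4.45 at 24 h in glucose and 4.94 against 2.29 in sucrose. ARR15, of the same type, had a difference of -0.46. IAA29, an auxin repressor, had 6.15 at 48 h against 4.68 at 24 h in glucose (at least 1.12-fold) and 7.20 against 4.27 in sucrose. GH3.1, of a family that inactivates auxin by joining it to amino acids, had 5.69, 11.3 and 9.63 at 0, 24 and 48 h in glucose and 5.78, 11.8 and 11.0 in sucrose. BRH1, a RING protein that responds to brassinosteroids, had 7.22 at 48 h against 5.93 at 24 h in glucose and 5.87 against 5.63 in sucrose. OPCL1, an enzyme of jasmonate synthesis, had 8.89 at 48 h against 10.0 at 24 h in glucose. GID1B, a gibberellin receptor, had a difference of -0.98 and the receptor GID1A 0.47.

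Transcription factors on the fixed lists showed 1 larger change. MYR2, a MYB-related factor, had 9.24 at 48 h against 5.70 at 24 h in glucose (at least 9.61-fold) and 6.52 against 5.99 in sucrose. None of 7 described bHLH, 3 homeodomain and 1 NAC genes passed 2-fold. RL2, among the 12 highest genes with a name, had 10.4 at 48 h against 7.96 at 24 h in glucose and 8.49 against 7.89 in sucrose. Others of those 12 were SBT3.12, a subtilase protease, with differences of 2.46 in glucose and 0.99 in sucrose, and ACLA-2, a subunit of ATP-citrate lyase, with 2.24 and 1.63.

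Among the 12 lowest genes with at least 6 on both arrays, 8 carry only a locus tag and 8 were at least 2-fold lower in sucrose too. AT5G42530 had 12.7, 9.62 and 6.21 at 0, 24 and 48 h in glucose and 13.0, 12.3 and 7.54 in sucrose. AT3G49340 had 7.06 at 48 h against 9.77 at 24 h in glucose but 9.51 against 9.22 in sucrose, and AT4G03292 had 8.10 against 10.7 in glucose but 10.4 against 10.3 in sucrose. Those 2 genes, like GSTU20, were lower in glucose and level in sucrose. The remaining tagged genes of the 12, AT5G19240, AT5G50915, AT5G18470, AT5G44575 and AT5G19750, differed by -2.34 to -2.19 in glucose. Lower genes under 6 at 48 h reached bounds of at least 3.77-fold to at least 5.39-fold. They were AT1G72920, AT5G08760, AT5G41400, AT3G04000, AT4G36550, AT4G12600, AT2G18010, listed as SAUR10, and AT5G24210. Further named genes among the 12 lowest were GLR2.7, a glutamate receptor-like channel (-2.10), the chitinase CHI (-1.82), the methionine aminopeptidase MAP1C (-1.74), thioredoxin THX (-1.72) and the sulfite reductase SIR (-1.67).

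The second day in sucrose was compared across the 7955 probe sets as a description; the pairs share no array, but probe sets are not independent. Pearson's r was 0.628 and Spearman's rho 0.584. Of the 867 probe sets higher in glucose, 756 (87.2%) had a positive difference in sucrose, where 49.2% of all described probe sets had one, and 368 (42.4%) passed 2-fold. Of the 828 lower in glucose, 751 (90.7%) were negative in sucrose, beside 50.8% of all, and 230 (27.8%) passed 2-fold. Read from the other side, 55.3% of the 665 probe sets higher in sucrose were higher in glucose, and 55.3% of the 416 lower ones were lower. The share that also passed 2-fold in sucrose grew with the glucose difference. For higher probe sets it was 27.6% of 504 between 2-fold and 4-fold, 45.8% of 179 between 4-fold and 8-fold, 67.0% of 94 between 8-fold and 16-fold, and 93.3% of 90 above. For lower probe sets it was 22.9% of 759 between 2-fold and 4-fold, 79.0% of 62 between 4-fold and 8-fold, and all of the 7 beyond. In sucrose 320 of the 867 and 450 of the 828 were within 1.5-fold between the times.

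**Figure D5:**
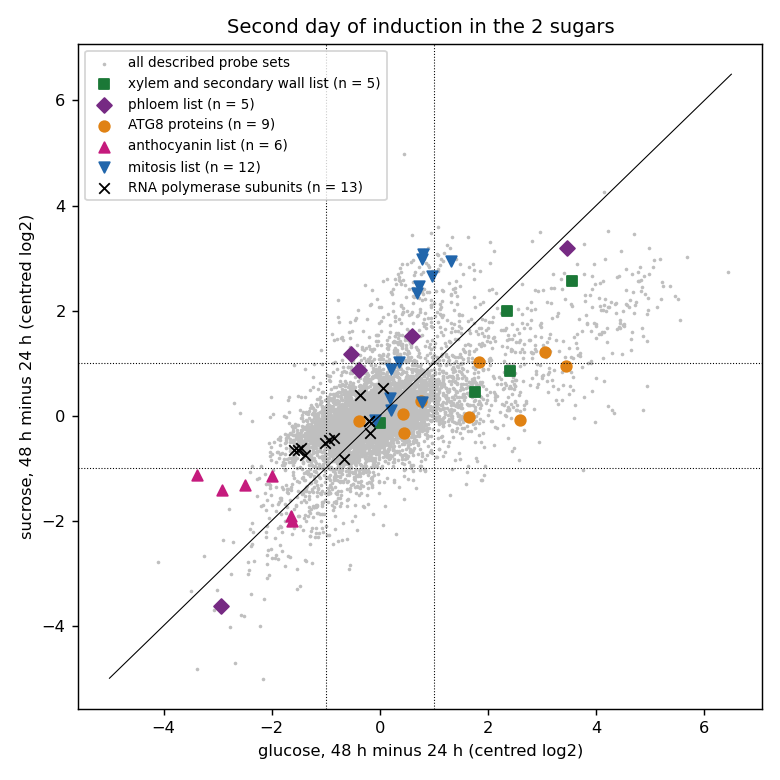
Centred log2 difference, 48 h minus 24 h, in glucose (horizontal) and sucrose (vertical) for the 7955 described probe sets (grey) and 6 gene groups, 1 array a sugar and time; dotted lines mark 2-fold and the solid line equal differences. The points follow a common trend with Pearson's r of 0.628, 10 of the 12 mitosis genes lie above the line of equal differences and most ATG8 and xylem genes below it.

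Only 9 described genes were at least 2-fold apart in opposite directions in the 2 sugars, and 7 of these had at least 6 on all 4 cultured arrays. AT2G30990 had 10.3, 6.51 and 10.2 at 0, 24 and 48 h in glucose and 10.3, 8.18 and 7.18 in sucrose, so its difference was 3.76 in glucose and -1.04 in sucrose. AT1G64370 had 9.15 at 48 h against 7.29 at 24 h in glucose and 7.96 against 9.15 in sucrose. AT5G57070 had 8.49 at 48 h against 6.58 at 24 h in glucose and 6.49 against 7.58 in sucrose, and AT1G28660 had 7.78 against 6.51 and 7.19 against 8.66. AT5G40460 was the single gene of the 7 in the other direction, with 6.5997 at 48 h against 7.70 at 24 h in glucose and 7.76 against 6.47 in sucrose. None of these 5 has a name in the reference table.

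At the limit of description, AT1G73700 reached 6.00 at 24 h and AT1G75280 reached 6.00 at 48 h, just inside, while AT4G16900 and AT1G65120 stayed just under it. AT1G75280 had 2.42 at 24 h, so a difference of 3.60 can come from a gene near the minimum on its higher array. Of 50 genes with several described probe sets, 40 had all of them on the same side of 2-fold, and 7 had probe sets of opposite sign at least 2-fold apart, of which UGT74D1 and nad2 carry a name.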

How the data were processed

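Each array measured amplified, biotin-labelled RNA, per the labels' protocols. The values deposited by the authors are log2 signals, 1 for each probe set, made with GCOS per the submitters' processing notes. The sources used here do not give the background correction, the normalization or the log base. Log2 was inferred: the highest value, 14.2, is 19217 on a linear scale. Depth does not apply to arrays, and 1 array a group limits the precision. Of 38408 probe sets, 98 are controls, 16722 have 1 gene, 759 have several and 20829 are not listed with a gene. RefSeq (assembly TAIR10.1) matched 16574 of the 16722. No coordinates or sequences were used.

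Members, lists and rules were chosen with earlier results of these data known. Each array was centred on its 1-gene median, with a minimum of 6 and a call at 2-fold. Named genes were the 12 highest and 12 lowest with at least 6 on both arrays, the 8 highest and 8 lowest bounds, all described xylem, phloem and procambium genes, up to 6 of each other list, and up to 4 a direction with opposite sugar differences. A gene is given by its brightest probe set. After values were seen, 31 wrongly matched list members were left out of the 43 lists, 4 lists were added, families were counted apart, and the 12 highest and 12 lowest genes with a name were named. Alternatives were other centrings and scalings, other minimums and 1 probe set a gene. The procedure was tested on simulated data. Python 3.11.15 with pandas 2.3.3 and statsmodels 0.14.6 was used.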

Additional observations from a re-analysis of the deposited data

Results flagged for a closer look

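Genes that went at least 2-fold in opposite directions in the 2 sugars are given by the sucrose difference minus the glucose difference, which was not tested. AT2G30990 had -4.80, AT1G64370 -3.10, AT5G57070 -3.06 and AT1G28660 -2.80, all higher at 48 h in glucose and lower at 48 h in sucrose. AT5G40460 had 2.33, with the opposite signs.

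Probe sets that the platform's table does not list were outside the comparisons above and changed more often downward. Of 8786 such probe sets at or above 6 outside a block of odd-numbered identifiers, 17.2% were at least 2-fold lower at 48 h in glucose and 7.84% higher, while the 0 h arrays differed by 2-fold in 6.71%. In the block of 7080 odd-numbered probe sets, 2422 reached 6, of which 65.0% were at least 2-fold lower and 0.784% higher, with a median difference of -1.17. The 0 h arrays differed by 2-fold for 41.3% of that block. Over the 23 background control probe sets the median log2 signal was 5.095 at 48 h and 4.76 at 24 h in glucose, and 4.52 and 4.64 in sucrose. These values move with the scaling choices, and their part in the results was not tested.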

How the results depend on the processing

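No paired analysis was possible because every group has 1 array, and for the same reason no replicate could be left out. Counts of probe sets at least 2-fold higher and lower in glucose (867 and 828) moved by over 1.5 times under centring on all non-control probe sets (1345 and 346), under a minimum of 8 (508 and 434, of 3860 probe sets, fewer being described) and, for lower calls, under quantile normalization (537). The other 7 settings stayed within 1.5 times for both counts. The share of the 0 h pair at least 2-fold apart was 4.41% with a minimum of 8, and Pearson's r between the sugars was 0.554 and 0.618 under its alternatives. None of the 338 list and named genes moved by over 1.5-fold under no centring, quantile or lowess scaling, and none that passed 2-fold changed sign. Of those under 2-fold, 5 changed sign without centring, 21 under quantile and 13 under lowess scaling, and of the 144 that passed 2-fold, 2, 6 and 2 no longer did. These settings shifted differences by at most 0.36, under the 0.58 of 1.5-fold. A larger move, or a changed sign past 2-fold, was thus not possible. Centring on all non-control probe sets, which added 0.35 to each difference, was not counted for single genes. Raising values under 6 to 6 moved the medians of 5 of 29 lists by over 1.5-fold: xylem (1.71), anthocyanin (-1.52), cold and osmotic (-1.68), sugar transport (-0.51) and defence (0.50). The lists as first written moved 3 medians. Signal near the minimum limits the fold of genes that were low on 1 array.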
